A study of Mus musculus with 11 samples.

Results

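ATAC-seq, in which the Tn5 transposase cuts and tags accessible DNA, was used on mouse CD8+ T cells. It compared cells sorted first as Tcf7 reporter low and later as high with cells sorted as low both times. Both groups came from spleen, carried a Tcf7-YFP reporter, were sorted as YFP low at day 3 and were cultured again until day 9. The low-to-high group was then sorted as YFP high (3 libraries) and the low-to-low group as YFP low (3 libraries), so that the labels set the groups apart by the second sort. These are 6 of the 11 libraries of the study. Of the others, 2 came from cells that were YFP high at both sorts (called lasting high here), 1 each from naive (CD44- YFP+) and antigen-experienced (CD44+ YFP+) CD8+ splenocytes, and 1 from cells activated ex vivo for 3 days (effector). The libraries were chosen by these labels and not by any measured value. The labels name no strain, age or gate for YFP high, and they leave unsaid if replicates are different mice or cultures. The p-values therefore measure the spread between these libraries, which may be technical.

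Tcf7 encodes TCF-1, a DNA-binding protein of the TCF/LEF family that partners with beta-catenin and with Groucho/TLE co-repressors. In CD8+ T cells it is high in naive, memory and stem-like cells and falls in most cells that become effectors. The reporter reads the activity of the Tcf7 gene in each cell. Low-to-high cells are those that were YFP high at day 9 in a population sorted as YFP low at day 3. The labels describe sorted populations and do not follow single cells, so a change within a cell was not tested.

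The values are normalized tag counts, the number of tags in a peak scaled to 10 M tags in the library. Peaks of all libraries that overlapped were merged into 111041 regions on the autosomes and the X chromosome, and the 34383 regions listed in each of the 8 day 9 libraries were tested with limma. Differences are low-to-high minus low-to-low on the log2(value + 1) scale after each library was centred on its median. This scale understates the change of low values. A region was assigned to the nearest gene within 100 kb, which 94.4% of all regions had. Such an assignment gives a position and does not show that the region acts on that gene.

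Few regions separated the 2 groups. At an adjusted p under 0.05, 11 regions (0.032% of those tested) were higher in low-to-high cells and 0 were lower (0%) by limma with Benjamini-Hochberg adjustment. The unadjusted p was under 0.05 in 1172 regions on the higher side (3.41%) and in 738 on the lower side (2.15%). After centring, the groups did not overlap in 5.94% of tested regions on the higher side and in 5.32% on the lower side. Of the 11 regions 8 lay in genes (Cacna1d and Dgkg of calcium and lipid signalling among them), 1 near Cd40lg, 1 near Nostrin, and 1 on chromosome 19 with no gene within 100 kb. Their differences ran from 0.75 to 1.09. None lay within 1 kb of a start site in the set used, which covered 17274 of 21631 protein-coding genes. The 8 inside a gene compare with 63.7% of all regions tested.

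2 of the 11 lay in genes of calcium and lipid signalling. Cacna1d encodes a pore-forming subunit of an L-type voltage-gated calcium channel. Its region (chromosome 14, 30427969 to 30428215, mm10, inside the gene) measured 11.7, 13.2 and 13.2 in low-to-high replicates 1, 2 and 3 and 6.39, 7.53 and 6.02 in the low-to-low replicates. Each low-to-high library was above each low-to-low library, a difference of 1.01 ± 0.17 (SE, limma, Benjamini-Hochberg adjusted p = 0.0125). Dgkg encodes diacylglycerol kinase gamma, which converts diacylglycerol, a second messenger of the T cell receptor, to phosphatidic acid. Its region (chromosome 16, 22526376 to 22526688, inside the gene) measured 11.7, 8.67 and 9.36 in low-to-high cells against 5.65, 4.90 and 4.94. The groups did not overlap, and the difference was 0.99 ± 0.18 (limma, adjusted p = 0.0213). The weakest peak in the list of low-to-low replicate 3 measured 4.08, so its 4.94 at Dgkg lay near the floor of that list. The 4 other tested regions of Dgkg all had differences below 0, and of the 4 others of Cacna1d 2 were above 0.

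Cd40lg encodes CD40 ligand, a costimulatory protein best known on activated CD4+ T cells that some CD8+ T cells also make. A region 26981 bp from the gene (chromosome X, 57184873 to 57185162) measured 13.6, 12.1 and 8.40 in low-to-high cells and 5.78, 7.41 and 4.94 in low-to-low cells. The lowest low-to-high library stood just above the highest low-to-low library, and the difference was 0.97 ± 0.18 (limma, adjusted p = 0.0265). A region 10098 bp from Nostrin, which encodes a protein that traffics endothelial nitric oxide synthase, had the largest difference of the 11 (chromosome 2, 69125449 to 69125702). It measured 13.6, 9.93 and 13.0 in low-to-high cells and 7.01, 5.49 and 5.37 in low-to-low cells (1.09 ± 0.19, limma, adjusted p = 0.0132). At Cd40lg and Nostrin, low-to-low replicate 3 (4.94 and 5.37) was likewise near the weakest peak of its list (4.08).

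Fnip2 encodes a partner of folliculin in nutrient sensing at the lysosome, and Evi5 a regulator of Rab GTPases and of cell division. The Fnip2 region (chromosome 3, 79535816 to 79536041, inside the gene) measured 31.9, 22.2 and 30.7 in low-to-high cells and 20.9, 14.0 and 13.1 in low-to-low cells (0.96 ± 0.17, limma, adjusted p = 0.0132). The lowest low-to-high library (replicate 2) was close to the highest low-to-low library (replicate 1). The Evi5 region (chromosome 5, 107840672 to 107840850, inside the gene) measured 26.5, 26.9 and 27.8 in low-to-high cells and 19.9, 17.1 and 11 in low-to-low cells (0.93 ± 0.15, limma, adjusted p = 0.0125). The low-to-high libraries were nearly equal there and the spread lay in the low-to-low group.

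Shroom3 encodes an actin-binding protein that shapes epithelial cells, and Ncald encodes neurocalcin delta, a calcium sensor. The Shroom3 region (chromosome 5, 92863955 to 92864269, inside the gene) measured 28.1, 20 and 28.6 against 19.3, 12.7 and 15 in low-to-low cells (0.84 ± 0.16, limma, adjusted p = 0.0430). The Ncald region (chromosome 15, 37482439 to 37482791, inside the gene) measured 24.9, 19.9 and 26.6 against 15.6, 13.7 and 14.2 (0.84 ± 0.15, limma, adjusted p = 0.0213). At both, replicate 2 was the lowest library of each group. Of the 9 other tested regions of Ncald, 6 had a difference above 0 and 0 had an unadjusted limma p under 0.05.

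Eipr1 encodes a protein that works with the EARP complex in endosomal recycling. Its region (chromosome 12, 28834354 to 28834640, inside the gene) measured 48.1, 36.8 and 33.8 in low-to-high cells and 32.8, 23.2 and 21.5 in low-to-low cells (0.77 ± 0.15, limma, adjusted p = 0.0430). The Gm7244 region (chromosome 9, 31271307 to 31271557, inside the gene) measured 35.9, 37.4 and 35.3 against 31.6, 20.2 and 21.1 (0.75 ± 0.15, limma, adjusted p = 0.0430). The region with no gene nearby (chromosome 19, 33265307 to 33265530) measured 26.1, 25.1 and 23.8 against 17.6, 17.0 and 13.1 (0.80 ± 0.14, limma, adjusted p = 0.0132). In all 3 regions the groups did not overlap. Gm7244 was the last region past the threshold, and the next in order, at Lyzl4, had a difference of 0.87 ± 0.18 (limma, adjusted p = 0.0618).

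**Figure D1:**
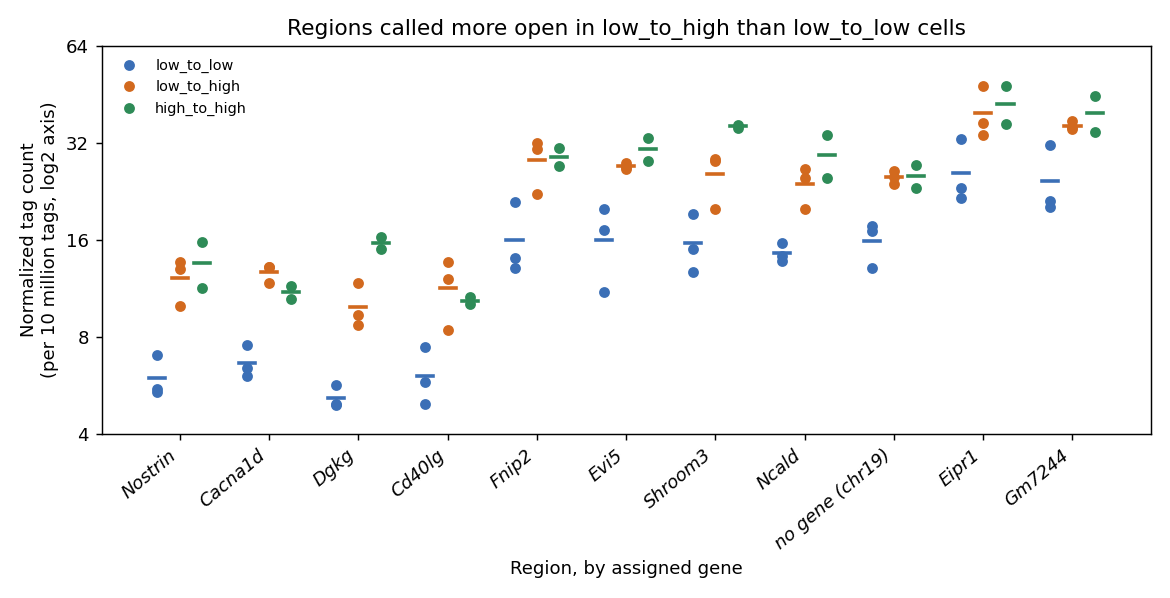
Normalized tag counts (tags per 10 M, log2 axis) of the 11 regions that were higher in low-to-high cells, with 1 point for each low-to-low, low-to-high and lasting high (high_to_high) library and a short line at each group mean. In each of the 11 regions the 3 low-to-high points lie above the 3 low-to-low points.

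In all 11 regions each low-to-high library was above each low-to-low library on the deposited scale, a separation that 0.73% of all tested regions had in this direction. The test itself chose these regions, so the separation is a description. The 2 lasting high libraries were not part of the contrast and were above every low-to-low library in 11 of the 11 regions, as in 1.57% of all tested regions. Their mean was above the low-to-high mean in 9 of them. At Ncald, for example, they measured 33.9 and 24.8, and at Dgkg 16.3 and 15. The comparison of lasting high with low-to-low cells shares the low-to-low libraries, so the likeness is not independent evidence.

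The spleen and effector libraries placed the 11 regions in several patterns. At Evi5, Eipr1, Gm7244, Dgkg and the chromosome 19 region, the naive and antigen-experienced libraries were above all 8 day 9 libraries. The Eipr1 region measured 108.2 (naive) and 110.4 (antigen-experienced), with no effector peak listed. The Evi5 region measured 62.9 and 82.2, again with none listed. The Dgkg region measured 31.6, 37.3 and 44.4 in naive, antigen-experienced and effector cells, so that every day 9 library was below all 3. The Cd40lg region was not listed in naive cells and measured 35.2 in antigen-experienced and 10.7 in effector cells. The Shroom3 region was listed in none of the 3. A region missing from a list fell below the peak caller's threshold and is not known to be closed. Each of these 3 conditions has 1 library, with no replicate check.

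**Figure D2:**
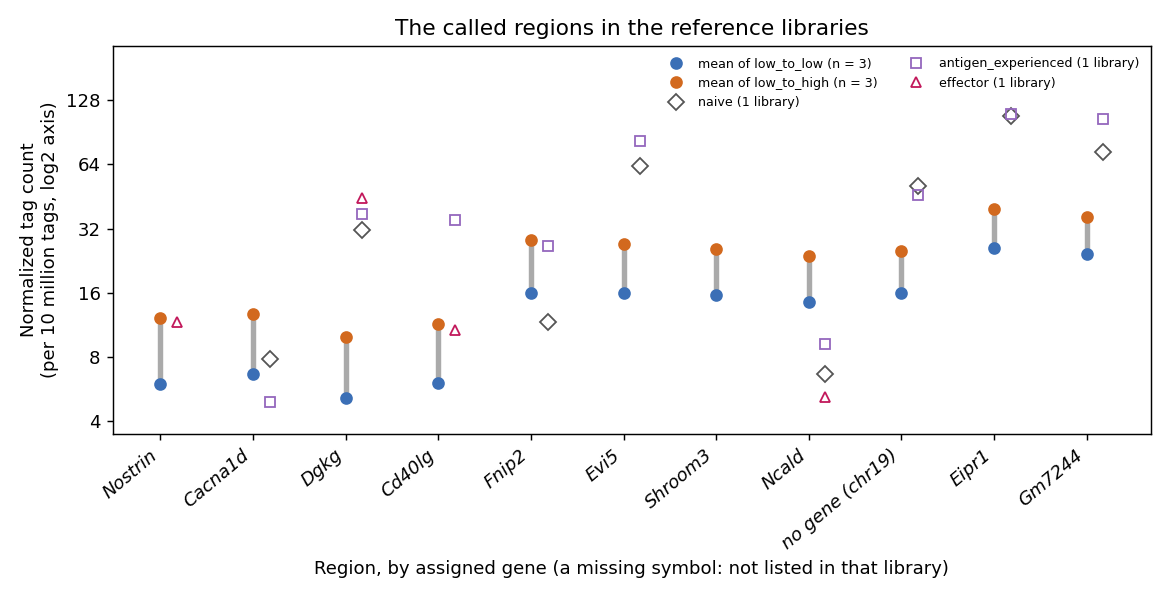
Normalized tag counts (tags per 10 M, log2 axis) of the 11 regions in the naive, antigen-experienced and effector libraries (open symbols, missing where not listed) beside the means of the low-to-low and low-to-high libraries (filled, joined by a bar). Regions such as Eipr1 and Gm7244 lie highest in the spleen libraries and have no effector value, and Shroom3 has no open symbol.

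The number of calls moved with the libraries in the fit. Without low-to-low replicate 2, low-to-low replicate 3 or low-to-high replicate 3, 0 regions passed. Without low-to-high replicate 1, 5 passed, without low-to-high replicate 2, 9 passed, and without low-to-low replicate 1, 54 were higher and 2 lower (at Kdm1a and Chrd). These counts include regions other than the 11. Of the 11, 2, 8 and 11 passed in these 3 fits, in that order. Evi5 and Cacna1d passed in 3 of these 6 fits, Eipr1, Gm7244 and Cd40lg in 1, and the others in 2. All 11 differences were above 0 in each of these 6 fits.

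Same-numbered libraries of the 2 groups deviated together, and a fit of the 6 libraries with the replicate number as a block called 113 of 35721 regions higher (0.316%) and 5 lower (0.014%). The block in the fit with the lasting high libraries gave 55 higher (0.16%) and 0 lower (0%). All 11 regions above were called in both block fits. The 113 regions had a median difference of 0.68 and a smallest one of 0.37, and all 113 were higher in each of the 3 pairs, against 16.9% of all regions. The block fit itself favours steady differences within pairs, so this agreement is a description of the regions it chose. From here on, the block is that of the 6 libraries unless the 3-group block is named.

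**Figure D3:**
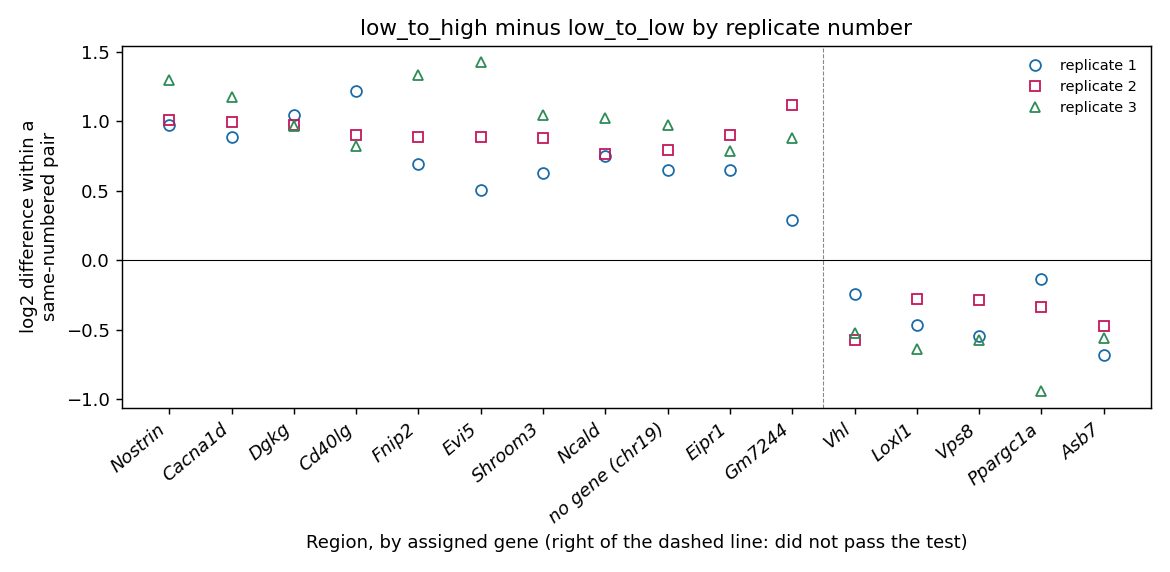
Difference between low-to-high and low-to-low libraries of the same replicate number (log2, centred), 1 symbol a pair, for the 11 called regions and, right of the dashed line, the 5 regions with the lowest p on the lower side, which did not pass without the block (Vps8, Loxl1 and Ppargc1a passed with it in the 6 libraries alone). The 11 lie above 0 in all 3 pairs, and the 5 lie below 0 in all 3.

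Of the regions that passed only with the block, the 5 with the lowest p and a gene lay at Pak3, Gypc, Mgll, Chl1 and Rpusd4. Mgll encodes monoacylglycerol lipase, which breaks down monoacylglycerols. Its region measured 54.3, 43.5 and 47.5 in low-to-high cells and 40.6, 34.2 and 32.4 in low-to-low cells, with no overlap. The difference was 0.60 ± 0.12, with an adjusted limma p of 0.0740 without the block and 0.000149 with it. The Gypc region, inside the gene of the red cell membrane protein glycophorin C, measured 46.3, 46.4 and 41.5 against 40, 32.3 and 27.3. The Pak3 region measured 63.9, 76.4 and 104.6 against 56.8, 49.0 and 71.1, so that the groups overlapped and only the pairs separated. Replicate 3 was the highest library of each group at Pak3.

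The 5 regions with the highest level of all 35721 were among the 113. They were the Rpusd4 region (309.8, 320.6 and 407.9 in low-to-high cells against 287.8, 235.0 and 316.5), the Chl1 region and 3 regions with no gene within 100 kb on chromosome 2, between 98662577 and 98667227. The strongest of those measured 926.7, 1113.2 and 1413.6 against 879.3, 899.0 and 1182.5. In that region, as at Rpusd4, replicate 3 was the highest library of each group. The median peak of the 6 libraries measured 12.7 to 15.3. The Rpusd4 region, 29401 bp from the gene, was also high in naive (197.7), antigen-experienced (248.4) and effector (188.3) cells. Regions were not filtered here for repeats or other sites of artificially high signal. Whether these 5, the Pak3 region or the rest of the 113 reflect open chromatin was not tested.

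**Figure D4:**
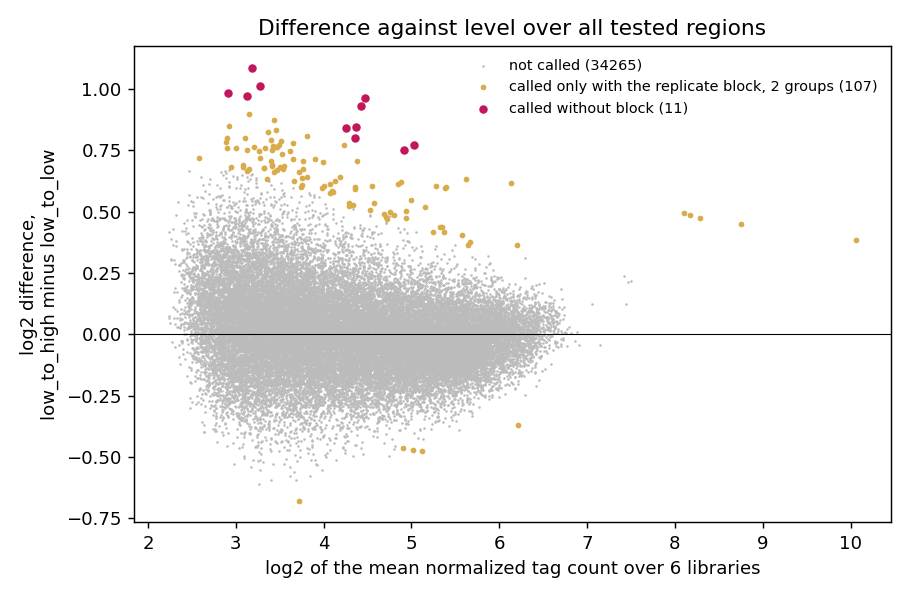
Difference between low-to-high and low-to-low cells (log2, centred) against the log2 of the mean normalized tag count over the 6 libraries, 1 point for each of the 34383 tested regions. The 11 regions called without the block (large points) lie at the upper edge, the regions called only with the block (middle-sized points) lie mostly below them, and 5 of those stand apart at the highest levels.

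No region was lower in low-to-high cells without the block. The 5 with the lowest p and a gene were at Vps8, Loxl1, Asb7, Vhl and Ppargc1a. The Vps8 region measured 22.2, 27.5 and 25.4 in low-to-high cells and 35.4, 40.6 and 42.8 in low-to-low cells (-0.47 ± 0.12, limma, adjusted p = 0.246). Vps8 encodes a subunit of the CORVET tether of early endosomes. The Ppargc1a region, at the gene of PGC-1alpha, a coactivator of mitochondrial genes, measured 32.4, 29.3 and 19.7 against 38.5, 44.7 and 43.4 (-0.48 ± 0.13, limma, adjusted p = 0.395). The Vhl region, at the gene of the ubiquitin ligase subunit that targets hypoxia-inducible factors, measured 22.4, 22.2 and 20.6 against 28.9, 40.3 and 33.7 (-0.45 ± 0.13, limma, adjusted p = 0.395). The groups did not overlap in these 3 regions on the deposited scale, but 21.1% of all tested regions were separated in this direction on that scale.

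With the block in the 6 libraries, 5 regions were lower, at Kdm1a, Vps8, Loxl1, Ogfod2 and Ppargc1a, and 0 of them passed with the 3-group block. Kdm1a encodes LSD1, a histone lysine demethylase. Its region measured 7.40, 9.21 and 10.1 in low-to-high cells and 10.6, 19.7 and 22.1 in low-to-low cells, and 48.1 in effector cells. The block fit gave a difference of -0.67 (limma, adjusted p = 0.0254). The lowest low-to-low library, replicate 1, was close to the highest low-to-high library. The Ogfod2 region, at the gene's start, measured 56.7, 71.0 and 54.2 against 81.3, 91.1 and 91.7 (-0.36, limma with the block, adjusted p = 0.0398).

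No region passed without the block in the lists of genes that mark memory and effector CD8+ T cells. In the naive and memory list (Tcf7, Lef1, Ccr7, Il7r and others), 172 regions of 24 genes were tested and 0 passed without the block. Of these, 6 had an unadjusted limma p under 0.05 on the higher side (3.49%, against 3.41% of all tested regions) and 2 on the lower side (1.16%, against 2.15%), and the median difference was 0.00, as over all regions (-0.00). In the effector list, 134 regions were tested and 0 passed, with 8 higher (5.97%) and 3 lower (2.24%) at an unadjusted p under 0.05. The inhibitory receptor list held 67 regions, of which 4 were higher (5.97%) and 1 lower (1.49%) at that level, and 0 passed. These lists, like the others below, were drawn up with earlier results of these data known.

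At Tcf7 itself, which drives the reporter used for the sort, the strongest region (chromosome 11, 52299731 to 52299925, 16348 bp from the gene) measured 74.5, 70.1 and 59.8 in low-to-high cells and 77.9, 76.4 and 74.3 in low-to-low cells. After centring the difference was 0.00 ± 0.11 (limma, adjusted p = 0.999). Of the 4 tested regions of Tcf7, 2 were above 0, and the differences ran from -0.14 to 0.02. The strongest region of Lef1, the other family member of T cells, measured 65.4, 68.8 and 60.7 against 68.1, 75.1 and 64.9, and of its 10 regions 2 were above 0. No region of either gene passed, and the lowest unadjusted limma p was 0.195 at Tcf7 and 0.112 at Lef1. In 2 of the 4 Tcf7 regions the centred groups did not overlap, with low-to-high cells lower, as in 5.32% of all tested regions.

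Genes of lymph node homing and survival did not pass the test either. The Il7r region, at the gene of the interleukin-7 receptor, measured 25.9, 23.1 and 23.8 against 25.2, 24.8 and 19.6 (0.24 ± 0.13, limma, adjusted p = 0.920). Of the 10 regions of Ccr7, a chemokine receptor for entry to lymph nodes, 8 were above 0, the largest at 0.32. At the start of Gzmb, the gene of the cytotoxic protease granzyme B, the values were 45.1, 61.8 and 51.4 against 57.7, 67.3 and 63.4, which overlapped (-0.09 ± 0.11, limma, adjusted p = 0.976). Of the 7 Gzmb regions 1 was above 0, and of the 4 Pdcd1 regions all 4 were above 0, but none of these genes had a region with an adjusted limma p under 0.05.

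Foxp1 encodes a forkhead factor that keeps naive T cells quiescent. 1 of its 23 tested regions (chromosome 6, 99486292 to 99486538, inside the gene) measured 24.3, 21.1 and 22.3 in low-to-high cells and 21.1, 11.3 and 12.7 in low-to-low cells. The groups touched at 21.1, the value of low-to-high replicate 2 and low-to-low replicate 1. The difference was 0.77 ± 0.18 (limma, adjusted p = 0.135), and with the block it was 0.78 (adjusted p = 0.00126; 0.00954 with the 3-group block). The region measured 86.7 in naive, 83.7 in antigen-experienced and 32.6 in effector cells and 26.7 and 25.8 in the lasting high libraries. Of all 23 Foxp1 regions 11 were above 0, so the gene as a whole had no common direction.

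2 chromatin and co-repressor genes also had a region called with the block alone. Tet2 encodes an enzyme that oxidizes methylated cytosine, and its region (18464 bp from the gene) measured 17.6, 12.6 and 14.2 against 11.2, 10.2 and 9.88. It gave 0.63 with an adjusted limma p of 0.304 without the block, 0.0352 with it and 0.0843 with the 3-group block. Tle4 encodes a Groucho-family co-repressor that binds TCF-1, and its region (97254 bp from the gene) measured 57.2, 51.3 and 52.1 against 49.3, 51.1 and 40. It gave 0.37 with an adjusted limma p of 0.520 without the block, 0.04999 with it and 0.216 with the 3-group block. In the list of Wnt and TCF partner genes, 0 of 75 regions passed without the block.

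In the diacylglycerol and calcium list, 2 of 100 regions passed (Dgkg and Cacna1d), and the list was made knowing these. At an unadjusted limma p under 0.05, 7 of its regions were higher (7%) and 2 lower (2%), against 3.41% and 2.15% of all tested regions. The T cell receptor signalling list had 0 called of 144 regions (5 higher, 3.47%, and 4 lower, 2.78%, at an unadjusted p under 0.05), and the interleukin-2 list 0 of 86 (2 higher, 2.33%, and 1 lower, 1.16%). The T cell identity list had 0 called of 77 regions (3 higher and 3 lower, 3.90% each), and the DNA methylation list 0 of 69 (4 higher, 5.80%, and 3 lower, 4.35%).

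Markers of the sorted cell type and of other cells were checked by their peaks. Of 8 CD8 T cell markers, 7 had a peak in all 6 libraries. For B cells, Cd79a and Ms4a1 were not listed in any of the 6 libraries, for myeloid cells Csf1r and Adgre1, and for erythroid cells Hbb-bs and Hba-a1. A peak in all 6 libraries was listed at 3 of 6 B cell, 3 of 6 myeloid, 4 of 5 natural killer and 2 of 4 erythroid markers. The summed level of 6 CD4 and regulatory T cell markers, which include Cd40lg, ran from 608.2 to 703.9 in low-to-high and from 659.1 to 721.6 in low-to-low libraries. These 6 are another set of genes than the list of 14 regions above. The natural killer markers summed to 350.4 to 377.6 against 407.9 to 449.1, and the B cell markers to 144.2 to 158.6 against 178.7 to 241.2. The CD8 T cell markers summed to 709.6 to 793.1 against 787.0 to 926.7, the myeloid markers to 142.1 to 150.7 against 154.1 to 185.5, and the erythroid markers to 50.1 to 61.4 against 62.7 to 73.8. The sums of these 5 lists were lower in low-to-high cells, with overlap between the groups for the CD8 T cell markers. The sums are not centred, and without centring the median difference of all regions was -0.17. Their part in the results was not tested.

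The libraries held 20.8 to 41.9 M tags and 46454 to 56744 peaks. The share of tags in peaks was 9.58%, 10.2% and 9.36% in low-to-high libraries (9.71% ± 0.418, SD, n = 3) and 10.4%, 12.5% and 10.8% in low-to-low libraries (11.2% ± 1.10, SD, n = 3). Every low-to-high library was lower (exact permutation test, two-sided, p = 0.1, the smallest that 3 against 3 allows). With this share as a covariate 0 regions passed, and the median difference of the 11 regions was 0.62 in place of 0.93, with values from 0.26 to 1.12. Without centring 0 regions passed, and the 11 had a median difference of 0.76. The second sort and the share of tags in peaks cannot be told apart here.

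The share of regions near a start site was then taken on each side of the comparison. The start sites used cover 17274 of 21631 protein-coding genes, so a region at a missing start counts as away from one. Only regions with a start-site distance were used, 33390 of the 34383 tested. Of the regions with an unadjusted p under 0.05, 5.50% on the higher side (62 of 1127) and 33.5% on the lower side (240 of 716) lay within 1 kb of a start site, against 25.3% of all tested regions. With the block, 1.82% of the higher regions (2 of 110) lay there. The higher side had the lowest share in each of 4 level classes. Among regions with a mean of 40 or more, 18.8% of the higher and 59.5% of the lower regions lay within 1 kb, against 59.3% of all. Among those from 20 to 40 the shares were 9.63%, 39.5% and 32.2%. From 10 to 20 they were 5.10%, 17.7% and 10.8%, and under 10 they were 1.47%, 5.08% and 5.15%. Per library, the median log2 level of regions within 1 kb exceeded that of regions beyond it by 1.25 ± 0.0770 (SD, n = 3) in low-to-high and by 1.32 ± 0.0275 (SD, n = 3) in low-to-low cells, a difference of -0.07 (exact permutation test, two-sided, p = 0.3). This split was chosen after the values had been seen.

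**Figure D5:**
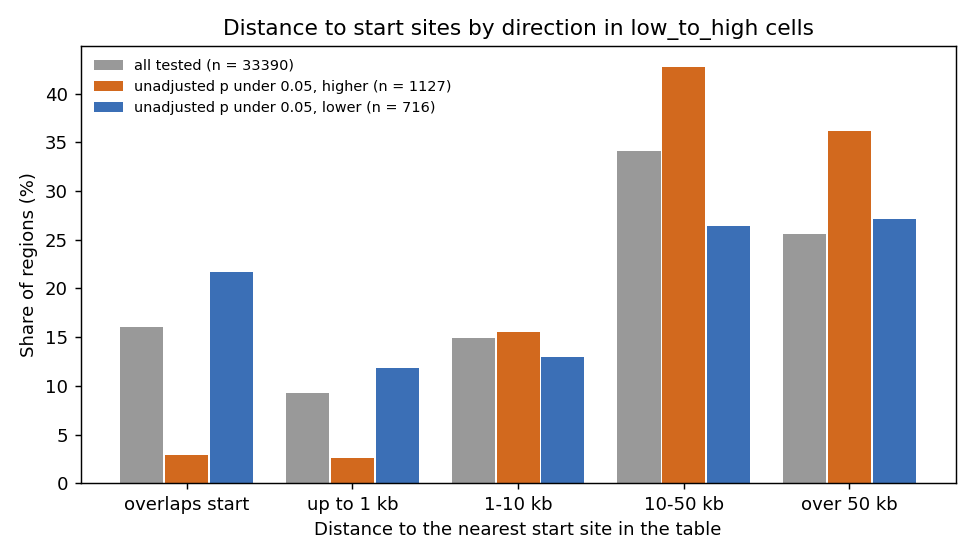
Share of regions (percent) by distance to the nearest annotated start site (bp, in classes) for all tested regions and for those higher or lower in low-to-high cells at an unadjusted p under 0.05. Higher regions are rare within 1 kb (5.50%), where lower regions (33.5%) and all regions (25.3%) are common.

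Listing in the reference libraries was compared in the same way. The effector list held 75.4% of all tested regions, 63.2% of the higher and 78.0% of the lower ones at an unadjusted p under 0.05, and 4 of the 11 called regions. Regions listed in both spleen libraries but not in the effector library made up 18.3% of all, 30.6% of the higher and 15.2% of the lower regions. They made up 6 of the 11 called regions (Evi5, Eipr1 and Gm7244 among them) and 43.4% of the 113 regions called with the block. In regions with a mean under 10 the effector list held 61.4% of the higher regions against 64.8% of all. From 10 to 20 the shares were 61.0% and 70.0%, from 20 to 40 they were 64.2% and 77.6%, and at 40 or more they were 85.5% and 92.3%. These shares describe 1 effector library and were not tested.

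Promoters under the few regions near start sites are shown because they carry the letters that were counted on each side. Sequences are from RefSeq (GRCm38.p6, the mm10 assembly), from 250 bases before to 50 after a start site, and matches on either strand are in capitals. Trpm1 encodes an ion channel. Its promoter (chromosome 7, 64185209 to 64185508, plus strand) is under a region that measured 15.9, 12.5 and 11.5 in low-to-high and 11.7, 8.60 and 5.80 in low-to-low cells, passed only with the block (limma, adjusted p = 0.00806) and was chosen after its values were seen. Capitals mark 1 TCF/LEF match (CTTTGA), inside the region, and 2 NF-Y matches (CCAAT), in the part of the promoter before the region. The Ogfod2 promoter (chromosome 5, 124112071 to 124112370, plus strand) is partly under the region that was lower only with the block in the 6 libraries (limma, adjusted p = 0.597 without it). The region overlaps 259 of the 300 bases, and the 1 SP/KLF match (GGGCGG) lies past its end. The Gzmb promoter (chromosome 14, 56262285 to 56262584, minus strand) is under a region that did not differ beyond its error, with 1 AP-1 match (TGANTCA) and 2 RUNX matches (TGTGGT).
Trpm1: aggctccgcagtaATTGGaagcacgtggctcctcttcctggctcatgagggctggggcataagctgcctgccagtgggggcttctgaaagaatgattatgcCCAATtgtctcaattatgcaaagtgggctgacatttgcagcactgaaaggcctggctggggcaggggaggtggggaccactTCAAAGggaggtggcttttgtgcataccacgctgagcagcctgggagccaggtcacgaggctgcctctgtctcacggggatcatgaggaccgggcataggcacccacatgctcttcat
Ogfod2: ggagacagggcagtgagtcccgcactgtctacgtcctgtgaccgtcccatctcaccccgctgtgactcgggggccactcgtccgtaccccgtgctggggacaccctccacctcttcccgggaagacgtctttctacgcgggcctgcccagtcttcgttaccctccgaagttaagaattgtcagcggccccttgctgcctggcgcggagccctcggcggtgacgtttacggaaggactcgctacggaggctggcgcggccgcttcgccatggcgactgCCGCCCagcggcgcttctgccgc
Gzmb: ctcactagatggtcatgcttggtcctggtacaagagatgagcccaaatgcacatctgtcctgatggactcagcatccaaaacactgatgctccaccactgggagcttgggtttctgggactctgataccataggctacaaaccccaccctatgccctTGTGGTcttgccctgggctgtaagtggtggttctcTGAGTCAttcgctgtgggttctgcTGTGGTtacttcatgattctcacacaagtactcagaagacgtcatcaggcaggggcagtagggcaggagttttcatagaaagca

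The TCF/LEF letters CTTTGA, the core bound by TCF-1, were in 16% of 32619 promoters and in 12.0% of the 9293 under a tested region. They were in 12 of 61 promoters under a region higher in low-to-high cells at an unadjusted p under 0.05 (19.7%) and in 22 of 250 under a lower region (8.80%). The SP/KLF letters GGGCGG were in 66.6% of promoters under a tested region, 45.9% of those under higher and 77.6% of those under lower regions. The RUNX letters were in 12.8%, 11.5% and 10.8%, the AP-1 letters in 4.42%, 1.64% and 4.4%, and the NF-Y letters CCAAT in 41.0%, 47.5% and 30%. Letters were counted over the whole promoter, of which a region may cover only a part. A match is a description of the letters and not a binding site, and these shares were not tested. The 11 called regions all lay away from the promoters in the set used, and their sequence was not used here.

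Regions listed in every library of 1 group and in none of the other were few. Among 44230 regions, 103 were listed in all 3 low-to-high and no low-to-low libraries (0.233%), and 441 the other way (0.997%). The median of their mean levels was 10.6 and 5.63. Of the 103, 50 had a region of the other group within 500 bp, and of the 441, 102 did, which are neighbouring windows. Dnaja2 and Qprt, for example, had such a region on each side. The 8 strongest low-to-high regions, at Ostc, Tmem140, Dnaja2, Dyrk3, Fli1, Qprt, 2310057M21Rik and Herc6, all had such a neighbour. On the other side Ikzf1, which encodes the lymphoid factor Ikaros, had a region (chromosome 11, 11689981 to 11690433) at 50.8 ± 6.96 (SD, n = 3) in low-to-low cells with no neighbour. Of the genes in the lists, Hdac7 and Satb1 appeared among the 103, and 19 genes among the 441. The 19 include Cacna1d (another region than the one called higher), Stim2, Bach2, Cblb, Fasl, Gzmk, Klrg1 and Il2. Those of Bach2, Fasl and Il2 had a region of the other group within 500 bp. Mean levels of the 19 ran from 4.24 (Lyz2) to 50.8 (Ikzf1), with 6.70 at Klrg1. The weakest listed peaks measured 2.96, 3.61 and 4.32 in low-to-high replicates 1, 2 and 3, which held 40.5, 27.7 and 20.8 M tags. In the low-to-low replicates they measured 2.83, 2.87 and 4.08, at 40.7, 41.9 and 23.3 M tags. The lower of these mean levels were thus near the floor of the lists, and a region missing from a list is not known to be closed. The share of list genes among all 44230 regions was not taken, so these counts are a description. Low-to-low libraries also had more peaks (a mean difference of -3941 peaks, low-to-high minus low-to-low, exact permutation test, two-sided, p = 0.3).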

How the data were processed

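ATAC-seq peak lists of 11 libraries were used. Per the submitters' processing notes, Bowtie2, HOMER 4.10 and DESeq2 were used with mm10; the role of DESeq2 is not given in the sources used here. Per the file headers, the authors called peaks in each library (at least 4-fold over the local background within 10 kb, FDR 0.001) and deposited a signal, the normalized tag count (per 10 M tags), and a ratio, the fold over local background. Tn5 shifts are not given in the sources used here.

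Peaks overlapping by 1 bp were merged, keeping the strongest value. limma 3.58.1 (R 4.3.3; trend) was fitted to log2(value + 1), with 3 day 9 groups sharing 1 spread, and Benjamini-Hochberg adjustment over all regions; scripts were tested on simulated data (numpy 2.4.6, pandas 2.3.3). Replicate numbers come from the titles. Same-numbered libraries correlated at 0.298, 0.136 and 0.161 in their deviations from group means, and others at -0.188 to 0.0209, so the numbers were taken as pairs. The pairing thus rests on these same data. Low-to-high and low-to-low libraries held 40.5 and 40.7 M tags in replicate 1, 27.7 and 41.9 M in replicate 2 and 20.8 and 23.3 M in replicate 3. Whether depth or a shared source lay behind the correlations was not tested. Gene spans and starts are from RefSeq GRCm38.p6. Start sites were available for 17274 of 21631 protein-coding genes.

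Regions named were those past the threshold, otherwise the 5 with the lowest p in that direction, the strongest region of 18 anchor genes, list regions that passed, the 8 strongest regions listed in 1 group alone, and 5 called only with the block. The members and lists were chosen with earlier results of these data known. Depth was 20.8 to 41.9 M tags. Alternatives covered the fit, centring, covariate, pseudocount, filter, peak threshold, overlap and each library left out.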

Additional observations from a re-analysis of the deposited data

How the results depend on the processing

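The 11 regions higher and 0 lower in low-to-high cells became 55 and 0 with the replicate block in the 3-group fit and 113 and 5 with the replicate block in the 6 libraries alone. No region was called higher with the in-peak tag share in the fit (0) or without centring (0), and voom called 6. Summing peaks in a region kept 8 of the 11 calls and gave 1 lower call, at Zhx2. The 2 groups alone without a block kept 10 of the 11. Leaving out 1 library gave 0 to 54 higher and 0 to 2 lower calls. Cyclic loess (12), the other pseudocounts (11 each), a mean of at least 10 (11), peaks at least 6-fold over local (9) and an overlap of 50 bp (11) gave like numbers. A mean of at least 10 left 7 of the 11 regions in the fit and 6-fold peaks left 9, and all of these passed; the differences of the regions fitted were above 0 under each setting. Over 849 alternative values of 41 named regions, 751 kept their side of the threshold, 78 lost significance and 20 gained it. The 751 include any change of sign where neither fit passed. A change of sign where either fit passed occurred 0 times. Apart from the block values in the text, which paired libraries, the block changed no other call of a named region. The 103 regions listed in low-to-high libraries alone became 61 at 6-fold, and 211 to 368 with 1 library left out; the 441 of the other side became 681 to 1657. The cause of these changes was not tested, except that fewer libraries make the listing easier to meet. Libraries of 20.8 to 41.9 M tags, 3 a group, limit which small differences can be seen, and regions below the caller's threshold in any day 9 library were not tested.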
